A study of Mus musculus with 37 samples.

Results

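The messenger RNAs of 35 enzymes of glycolysis, the pyruvate dehydrogenase complex and glycogen metabolism were followed in hippocampal astrocytes of mice after controlled cortical impact (CCI), a focal contusion of 1 hemisphere. The enzymes were listed by name, with earlier results of these data known, and all 35 symbols were found among the 21975 genes of the count and TPM tables, TPM being a share of the library scaled by transcript length. The labels give the mice as wild type of a strain written CD31, and the study's methods as adult CD1 males. The injured mice received the severe form of the injury and, with the sham mice, were implanted with electrodes and recorded by video EEG. An injured mouse with 2 or more seizures was PTE+ (post-traumatic epilepsy), any other injured mouse was PTE-, and sham mice had a craniectomy and electrodes but no impact. Astrocytes were taken 4 months after surgery from the hippocampus on the injured side (ipsilateral) and on the other side (contralateral) with magnetic beads against ACSA-2, a surface antigen of astrocytes. There were 5 PTE+, 10 PTE- and 5 sham libraries of the contralateral side, and 4, 8 and 5 of the ipsilateral side. Of the 20 mice, 17 gave both libraries.

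Glycolysis splits glucose into pyruvate in the cytosol and yields ATP without oxygen. Pyruvate then leaves as lactate, enters the tricarboxylic acid cycle through the pyruvate dehydrogenase complex, or is carboxylated by pyruvate carboxylase, which in brain is an astrocytic reaction. The pyruvate dehydrogenase kinases phosphorylate the complex and switch it off. Glycogen, the stored form of glucose, lies mostly in astrocytes in the adult brain and is broken down by glycogen phosphorylase. Several steps have isoenzymes with their own cell type, such as aldolase C (Aldoc) of astrocytes and enolase 2 (Eno2) of neurons.

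The libraries held 25371887 to 59846479 counts. The ipsilateral PTE- library of mouse a8_11 stood apart: 9020 genes had a count there, against 10886 to 15545 in the other ipsilateral libraries, and 2234 of the 6953 abundant genes had at most 3 counts. That number had a median of 11 over the 37 libraries, but was also high in some others. Among them were contralateral PTE- a9_20 (984), ipsilateral PTE- a8_14 (845) and ipsilateral sham a9_9 (836). Each of the 10 astrocyte markers was above 0 in every library, and their summed level ran from 3025 to 11239 TPM. Markers of other cells were present as well: 10 neuronal markers summed to 62.1 to 1264 TPM and 5 blood genes to 104 to 16536 TPM. As these are bulk samples, fewer cells of a type and less RNA per cell cannot be told apart.

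Aldoc, Eno1 and Eno2 are the enzymes on which the group differences below turn, and the 250 bases before their RefSeq start sites (assembly GRCm38.p6, the assembly of mm10) are shown for reference, 5′ to 3′ on the gene's strand. Capitals mark ACGTG or GCGTG on either strand, the core of the element bound by hypoxia-inducible factors. The windows are chr11:78322823-78323072 on the plus strand for Aldoc, chr4:150236458-150236707 and chr4:150236974-150237223 on the plus strand for the outer and an inner start of Eno1, and chr6:124769674-124769923 on the minus strand for Eno2.
Aldoc: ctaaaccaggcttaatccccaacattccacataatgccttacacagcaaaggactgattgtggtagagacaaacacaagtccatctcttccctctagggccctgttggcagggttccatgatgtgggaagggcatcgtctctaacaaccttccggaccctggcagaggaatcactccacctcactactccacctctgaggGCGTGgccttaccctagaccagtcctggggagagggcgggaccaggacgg
Eno1, outer start: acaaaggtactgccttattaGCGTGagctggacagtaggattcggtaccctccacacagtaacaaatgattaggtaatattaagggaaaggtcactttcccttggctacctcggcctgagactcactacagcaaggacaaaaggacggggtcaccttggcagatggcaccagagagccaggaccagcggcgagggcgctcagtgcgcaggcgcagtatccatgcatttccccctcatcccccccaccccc
Eno1, inner start: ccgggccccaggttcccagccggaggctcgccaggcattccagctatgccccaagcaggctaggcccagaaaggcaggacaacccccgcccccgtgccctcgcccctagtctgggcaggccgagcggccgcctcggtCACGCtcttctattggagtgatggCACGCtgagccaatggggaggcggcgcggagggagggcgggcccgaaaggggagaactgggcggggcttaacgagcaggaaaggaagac
Eno2: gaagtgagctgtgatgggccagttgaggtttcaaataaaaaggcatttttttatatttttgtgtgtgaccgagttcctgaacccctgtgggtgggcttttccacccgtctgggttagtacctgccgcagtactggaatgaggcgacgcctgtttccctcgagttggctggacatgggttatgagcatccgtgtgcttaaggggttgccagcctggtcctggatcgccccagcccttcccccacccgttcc
These letters occurred 1 time in the Aldoc window shown, 1 time and 2 times in the windows of Eno1 shown, and not in that of Eno2. A further Aldoc window, chr11:78323948-78324197, is not shown and held them 1 time. RefSeq start sites were found for 34 of the 35 enzymes, and 37 of their 51 windows (72.5%) held the letters, against 38.6% of 32851 windows of all genes. Windows of the same gene can overlap, as those of Eno1 do, and the windows of all genes were not matched for base composition. A match describes the letters only.

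The astrocytes held large amounts of the RNA of the lower steps of glycolysis, from aldolase to pyruvate kinase. The 35 enzymes together made up 1.52% to 3.28% of all TPM in a library, the lowest in ipsilateral PTE- mouse a8_11 and the highest in ipsilateral sham mouse a8_15. Aldoc, which splits the hexose bisphosphate into triose phosphates, was the most abundant of them with a median of 8472 TPM over 37 libraries and a range of 3142 to 14429 TPM. Gapdh, the triose phosphate dehydrogenase, followed with 4063 TPM, and Aldoa, the ubiquitous aldolase, with 2641 TPM. Next were the enolase genes Eno1b (1688 TPM) and Eno1 (1491 TPM), Tpi1, the triose phosphate isomerase (921 TPM), and pyruvate kinase (Pkm, 866 TPM). Phosphoglycerate mutase (Pgam1) had 436 TPM and phosphoglycerate kinase (Pgk1) 315 TPM. In the upper steps the median was 108 TPM for hexokinase 1 (Hk1), 561 TPM for glucose phosphate isomerase (Gpi1) and 347 TPM for the muscle-type phosphofructokinase (Pfkm).

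**Figure D1:**
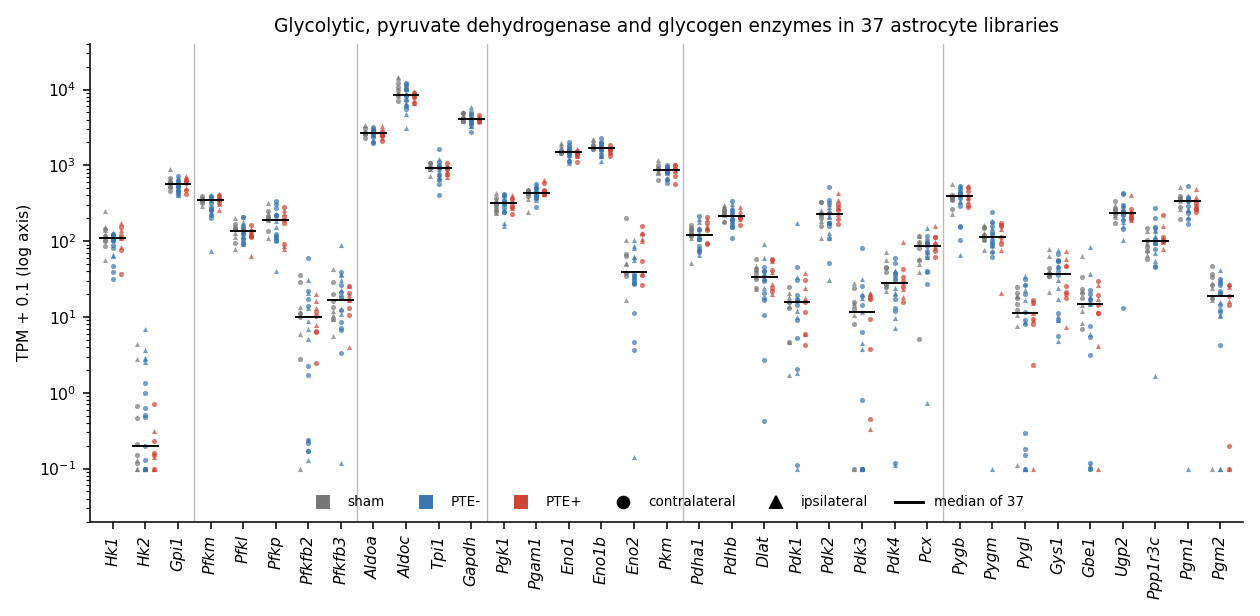
TPM (plus 0.1, log axis) of each of the 35 enzymes in the 37 libraries, grouped by step from hexokinase on the left to the glycogen enzymes on the right; each point is a library, coloured by group, circles contralateral and triangles ipsilateral, and the bar is the median of 37 libraries. Aldoc lies highest with a median of 8472 TPM, and Hk2 lowest with 0.1 TPM.

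Enolase 1 was counted under a pair of genes. Eno1 (chromosome 4, 150236721 to 150248879) had a median of 1491 TPM, and Eno1b (chromosome 18, 48045335 to 48048412), a near copy of it, 1688 TPM. Of the 100-base words in the Eno1b transcripts, 63.6% also occur in those of Eno1, so that the split of the reads between them is uncertain. Eno1 took 43.8% to 48.0% of the summed TPM of Eno1, Eno1b and Eno2 in every library. Both rows are therefore described as 1 signal, and their values side by side are not 2 pieces of evidence. Of the words of Gapdh, 13.5% also occur in Gm10358, and of those of Pfkfb2 14.5% in Gm29427. Aldoa has a second identifier in the tables with at most 14.4 TPM, which was left out.

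Around pyruvate, the subunits of the first enzyme of the dehydrogenase complex had medians of 122 TPM (Pdha1) and 214 TPM (Pdhb), and its acetyltransferase Dlat 33.8 TPM. Pyruvate carboxylase (Pcx) had a median of 85.8 TPM and a range of 0.64 to 157 TPM. Among the glycogen enzymes, the brain-type phosphorylase Pygb led with 388 TPM, followed by phosphoglucomutase 1 (Pgm1, 336 TPM), the UDP-glucose pyrophosphorylase Ugp2 (232 TPM), the muscle-type phosphorylase Pygm (115 TPM) and Ppp1r3c (101 TPM), which tethers protein phosphatase 1 to glycogen. The muscle-type glycogen synthase Gys1 had 36.3 TPM and the branching enzyme Gbe1 14.9 TPM.

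For most steps 1 isoenzyme led in nearly every library. Hk1 was above Hk2, the inducible hexokinase, in 37 of 37 libraries, and Hk2 had at most 3 counts in 12 of them. Pfkm was the highest phosphofructokinase in 35 of 37 libraries with a median share of 49.9% of the 3 genes, beside 28.5% for the platelet-type Pfkp and 20.4% for the liver-type Pfkl. Aldoc was above Aldoa in 37 of 37 libraries with a median share of 76.6%. Pdk2 was the highest of the 4 dehydrogenase kinases in 36 of 37 libraries with a median share of 80.6%, followed by Pdk4 (9.21%), Pdk1 (5.27%) and Pdk3 (4.43%). Pygb was the highest phosphorylase in 36 of 37 libraries, with a median share of 73.2% beside 23.8% for Pygm and 2.19% for the liver-type Pygl. Pgm1 made up a median of 94.4% of the phosphoglucomutase TPM, the rest being Pgm2. Pfkfb3 and Pfkfb2, which set the level of the allosteric activator of phosphofructokinase, had low medians of 16.5 and 10.01 TPM, and Pfkfb3 was the higher in 28 of 37 libraries.

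Taken as a set, abundant enzymes varied less between libraries than rarer ones. The SD of log2(TPM + 1) over 37 libraries had a median of 0.40 for the 22 enzymes above 100 TPM, against 0.55 for all 1648 genes above that level. Among these 22, Pgm1 (1.41), Pygm (1.27) and Ppp1r3c (1.04) had a large SD. These values include ipsilateral PTE- library a8_11, which had no count of Pgm1 or Pygm, while every other library had over 3 counts of both. The SD without that library was not computed. For the 12 enzymes with medians of 5 to 100 TPM the median SD was 1.49, against 1.37 for 8322 genes. In all, 22 of the 35 enzymes had over 3 counts in every library. The ipsilateral PTE- library of a8_11 had at most 3 counts for 10 enzymes (Hk2, Pfkfb3, Eno2, Pdk3, Pdk4, Pcx, Pygm, Pygl, Pgm1 and Pgm2), more than any other library. Pdk3 was at or under that limit in 8 libraries, Pygl in 7, and Gbe1 and Pgm2 in 5 each.

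The ipsilateral hippocampus of injured mice was compared with that of sham mice to ask what the injury left behind in these enzymes. Counts were scaled to CPM (counts relative to the library total, with TMM factors) and tested with edgeR. The adjusted p quoted is that of Benjamini and Hochberg, and as fitted here it was 0.9998 or more for each of the 35 enzymes in all 11 comparisons. Over all genes, 236 of 14903 had an unadjusted edgeR p under 0.05 in ipsilateral PTE- against sham, fewer than evenly spread p-values would give. A high adjusted p here does not show that an enzyme was unchanged. Aldoc and enolase 1 were lower in PTE- mice. Aldoc CPM ran from 4237 over a median of 7331 to 13301 in the 8 PTE- mice, and from 8339 to 19639 in the 5 sham mice (8339, 8701, 10568, 17641 and 19639). The ranges overlapped, and sham mice a8_15 and a8_16 were the highest of the 13. The means were 7902 ± 3151 (SD, n = 8) in PTE- mice and 12978 ± 5285 (SD, n = 5) in sham mice. The log2 fold change of Aldoc was -0.72 ± 0.27 (SE; edgeR p = 0.0145), while an exact 2-sided permutation test of log2(CPM + 1) gave p = 0.0559. Eno1 CPM ran from 1251 over 1606 to 2019 in PTE- mice and was 1681, 1809, 2204, 2534 and 2883 in sham mice. Here 3 of the 5 sham libraries lay above every PTE- library. The log2 fold change was -0.46 ± 0.15 for Eno1 (SE; edgeR p = 0.0078) and -0.51 ± 0.15 for Eno1b (SE; edgeR p = 0.0040). Permuting the libraries exactly gave p = 0.0179 for Eno1 and p = 0.0078 for Eno1b.

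By the study's criteria (unadjusted p under 0.05, at least 1.2-fold, mean TPM above 5 in a compared group) Aldoc, Eno1 and Eno1b were the 3 of 35 enzymes that were lower in ipsilateral PTE- than sham mice, and none was higher. Of 11210 genes above 5 TPM, 0.723% were lower and 0.589% higher by the same criteria. Calls were more frequent among the 1979 genes above 100 TPM, where these enzymes lie: 60 were lower and 29 higher. After Benjamini-Hochberg adjustment over 14903 genes 0 of the 35 enzymes passed with edgeR, and 0 with DESeq2 or limma, while 3 had an unadjusted edgeR p under 0.05. The median log2 fold change of the 35 enzymes was -0.18, with 25 below 0. It was 0.02 over all 14903 genes (7233 below 0) and -0.03 over the 1979 genes above 100 TPM (1043 below 0). DESeq2 gave Eno1 a log2 fold change of -0.37 (unadjusted p = 0.0539), which misses the criteria. Without library a8_11 the log2 fold change was -0.59 for Aldoc (edgeR p = 0.0330) and -0.44 for Eno1 (edgeR p = 0.0072). Without sham library a8_15 that of Aldoc was -0.53 (edgeR p = 0.0728), and without a8_16 it was -0.55 (edgeR p = 0.0660). The mice carry names that begin with a8 or a9, a split the labels do not explain. On the log2(CPM + 1) scale the Aldoc difference was -1.44 among a8 mice (3 against 2) and -0.26 among a9 mice (5 against 3), and that of Eno1 -0.56 and -0.37.

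In ipsilateral PTE+ mice enolase 1 and Aldoc were lower than in sham mice as well; the sham libraries are those used above. Eno1 CPM was 1513, 1522, 1599 and 1627 in the 4 PTE+ mice, all below the lowest sham library at 1681. Eno1b did not overlap between the groups either, and its log2 fold change was -0.54 ± 0.18 (SE; edgeR p = 0.0090), beside -0.51 ± 0.18 for Eno1 (SE; edgeR p = 0.0134). In an exact 2-sided permutation test of log2(CPM + 1) Eno1 gave p = 0.0317 and Eno1b p = 0.0238, where 0.0079 is the smallest p that 4 against 5 libraries allow. Of 11412 genes above 5 TPM, 1.31% did not overlap between these groups. Aldoc CPM was 6097, 7529, 8058 and 8717 in PTE+ mice, and 3 of these values lay below every sham value. Its log2 fold change was -0.77 ± 0.32 (SE; edgeR p = 0.0271; exact permutation p = 0.0635).

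These 3 rows were the enzymes that met the criteria in PTE+ against sham, all lower, while 0.517% of genes were lower by the criteria and 0.123% higher. Of the 1979 genes above 100 TPM, 37 were lower and 3 higher. After adjustment 0 of 35 enzymes passed with edgeR, DESeq2 or limma, and 3 had an unadjusted edgeR p under 0.05. Here abundant genes as a whole were lower: the median log2 fold change was -0.27 for the enzymes (26 of 35 below 0) and -0.20 for the 1979 genes above 100 TPM (1402 below 0), but 0.00 for all 14903 genes. On the log2(TPM + 1) scale the median of 10879 genes lay 0.21 higher in this comparison than on the CPM scale, and there the median of the enzymes was -0.06, Eno1 differed by -0.21 (limma p = 0.169), Eno1b by -0.27 (limma p = 0.0677) and Aldoc by -0.44 (limma p = 0.134). Without sham library a8_15 the log2 fold change of Eno1 was -0.36 (edgeR p = 0.0556) and that of Aldoc -0.53 (edgeR p = 0.117), and Aldoc also missed the threshold without sham a8_16 (edgeR p = 0.109) or without PTE+ a9_19 (edgeR p = 0.0739).

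Markers of other cells differed along with these enzymes. All 5 blood genes had lower medians in both injured groups than in sham, with summed levels of 943 to 7629 TPM in sham, 410 to 3254 TPM in PTE- and 1490 to 2409 TPM in PTE+ mice. Of 8 oligodendrocyte lineage markers, 7 were lower in each injured group, with sums of 105 to 1757 TPM in sham, 61.5 to 779 TPM in PTE- and 161 to 592 TPM in PTE+ mice. The summed astrocyte markers overlapped widely, at 5992 to 11239 TPM in sham, 3025 to 10020 TPM in PTE- and 6310 to 9817 TPM in PTE+ mice, and 6 of 10 had a lower median in PTE- but 4 of 10 in PTE+ mice. Other markers moved the other way: all 6 endothelial and mural markers were higher in PTE+ than sham mice (90 to 1087 against 229 to 452 TPM) but 5 of 6 lower in PTE- mice (153 to 771 TPM), and of 10 neuronal markers 8 were higher in PTE+ (182 to 863 TPM) and 6 in PTE- mice (62.1 to 788 TPM) than in sham mice (74.0 to 525 TPM). The part of other cells in the differences of Aldoc and enolase 1 was not tested.

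**Figure D2:**
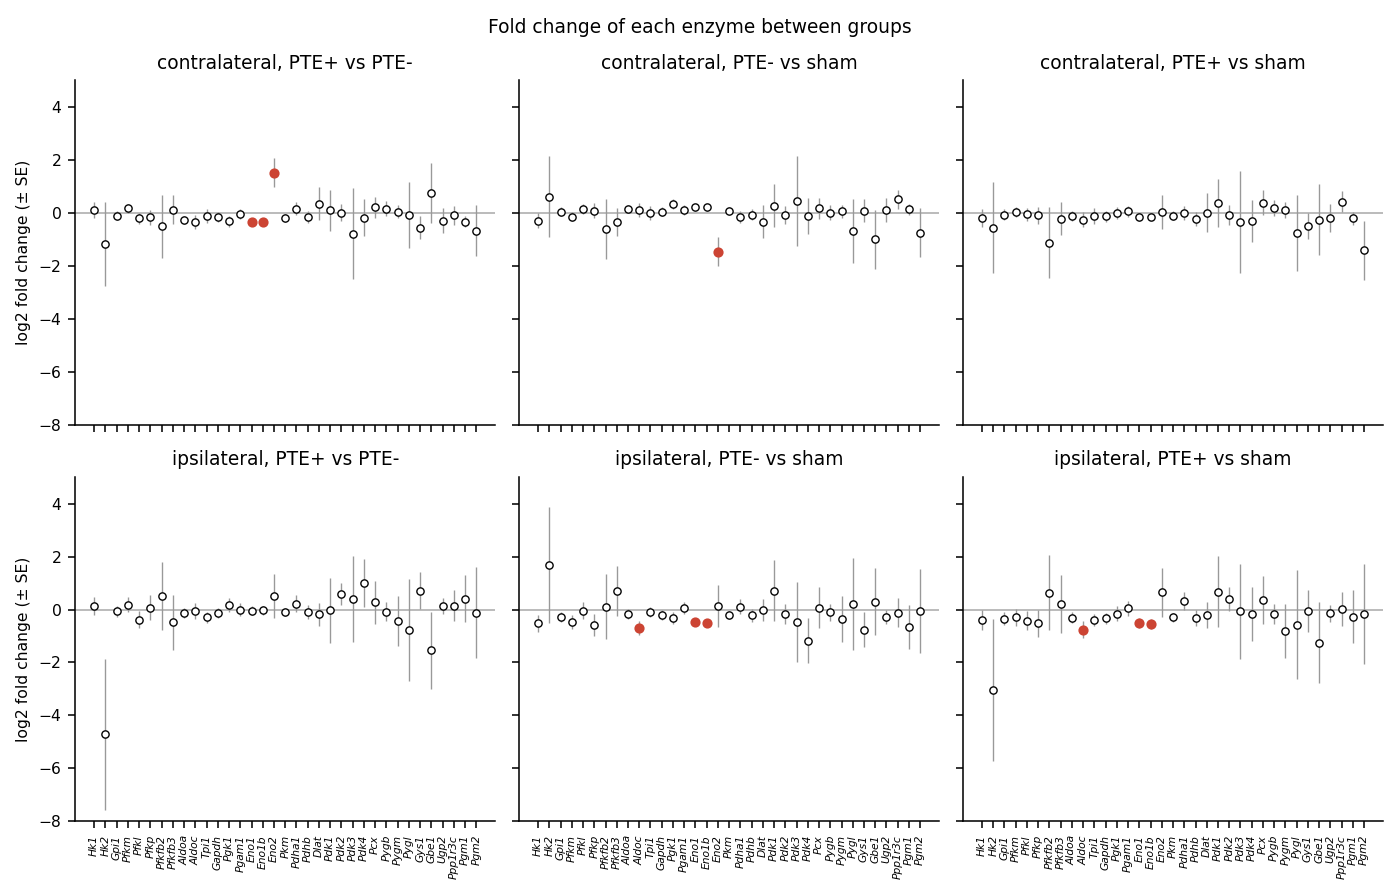
Log2 fold change (± SE, edgeR) of each of the 35 enzymes in the 6 comparisons between groups, contralateral above and ipsilateral below; filled red points met the study's criteria. On the ipsilateral side the red points are Aldoc, Eno1 and Eno1b in PTE- vs sham and PTE+ vs sham, and on the contralateral side Eno1, Eno1b and Eno2.

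PTE+ and PTE- mice were compared directly on the ipsilateral side, and no enzyme met the criteria there. The background was 0.0949% of 11597 genes higher and 0.552% lower. The median log2 fold change was -0.03 with 15 of 35 enzymes above 0, beside 7343 of 14903 genes above 0. It was 0.21 on the log2(TPM + 1) scale, on which the median of 10879 genes lay 0.11 higher. The mean of Eno1 was 1565 CPM in the PTE+ libraries (SD 56.6, n = 4), close to 1615 CPM in the PTE- libraries (SD 274, n = 8), and the means of Aldoc were 7600 CPM (SD 1114) and 7902 CPM (SD 3151). Of the 35 enzymes, 0 had an unadjusted edgeR p under 0.05. Hk2 had the smallest edgeR p (0.116). It had 0.00 to 0.76 CPM in the PTE+ libraries and 0.00 to 24.0 CPM in the PTE- libraries, with a median of 3.12. Its deposited counts were 0, 0, 7 and 43 in PTE+ mice, and in PTE- mice 0 in 3 libraries and 112 to 1253 in the other 5. DESeq2 and limma gave it unadjusted p-values of 0.0417 and 0.0497.

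On the contralateral side, which was not struck, the enzymes that differed between PTE+ and PTE- mice were all enolases. Eno1 CPM was 1490, 1519, 1533, 1592 and 1831 in the 5 PTE+ mice, and ran from 1671 over a median of 1904 to 2492 in the 10 PTE- mice. Thus 4 of the 5 PTE+ libraries lay below every PTE- library, the exception being a9_19. Those of sham mice overlapped both, at 1538 to 1936 CPM for Eno1. The log2 fold change was -0.36 ± 0.12 for Eno1 (SE; edgeR p = 0.0068) and -0.35 ± 0.13 for Eno1b (SE; edgeR p = 0.0111). Exact permutation tests over the libraries gave p = 0.0063 and p = 0.0110. Among a8 mice the Eno1 difference was -0.50 and among a9 mice -0.25. On the log2(TPM + 1) scale, on which the median of 10873 genes lay 0.11 higher, Eno1 differed by -0.21 (limma p = 0.115).

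Eno2, the neuronal enolase, went the other way and was higher in contralateral PTE+ than PTE- mice. Its CPM was 38.9, 54.8, 64.7, 140 and 192 in PTE+ mice. In PTE- mice it ran from 6.23 over a median of 39.7 to 88.8, and in sham mice it was 48.1, 55.9, 73.4, 89.7 and 213. PTE+ mice a9_17 and a9_19 lay above every PTE- library, and the other 3 lay within their range. The log2 fold change was 1.51 ± 0.55 against PTE- (SE; edgeR p = 0.0115), and PTE- against sham gave -1.48 ± 0.55 (SE; edgeR p = 0.0130), with the same PTE- libraries. Without PTE+ library a9_19 the first was 1.12 (edgeR p = 0.0698), with a covariate for how many genes a library detected it was 1.10 (edgeR p = 0.0550), and without sham library a9_11 the second was -0.95 (edgeR p = 0.112). Within a8 mice the log2(CPM + 1) difference of PTE+ and PTE- was -0.09 (2 against 4; exact permutation p = 0.800) and within a9 mice 2.79 (3 against 6; exact permutation p = 0.0238). The difference between the prefixes was not tested, and 2 against 4 libraries cannot reach 0.05 in this test. For PTE- against sham it was -0.52 within a8 and -2.40 within a9.

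Neuronal markers moved with Eno2. All 10 had a higher median in contralateral PTE+ than PTE- mice and all 10 a lower one in PTE- than sham mice, with summed levels of 119 to 1264 TPM in PTE+, 105 to 240 TPM in PTE- and 114 to 812 TPM in sham mice. The highest sums were those of PTE+ a9_19 and sham a9_11, the libraries with the highest Eno2. Over the 20 contralateral mice Pearson's r of log2(TPM + 1) of Eno2 and the summed markers was 0.57 (permutation p = 0.0092, adjusted over 2 relations 0.0092) and Spearman's rho 0.48 (permutation p = 0.0324, adjusted 0.0324). Pearson's r leaned on the extreme libraries, as it was 0.23 without the 2 farthest from the median of the markers. Spearman's rho was not computed without them. Pearson's r was -0.24 in the 8 a8 mice and 0.67 in the 12 a9 mice. Over the 17 ipsilateral mice r was 0.75 (permutation p = 3e-05, adjusted 6e-05) and rho 0.81 (permutation p = 0.00014, adjusted 0.00028), with 0.68 without the 2 farthest, 0.83 in 6 a8 mice and 0.78 in 11 a9 mice. Of 8 microglial markers 7 had a higher median in PTE+ mice (sums of 354 to 674 against 27.1 to 1326 TPM) and of 10 astrocyte markers 7 a lower one (5966 to 9528 against 3888 to 9625 TPM). All 6 endothelial and mural and all 5 blood genes also had a higher median in PTE+ than PTE- mice, with sums of 488 to 2186 and 704 to 8547 TPM in PTE+ against 126 to 1157 and 1380 to 16536 TPM in PTE- mice. Contralateral PTE- libraries also had fewer genes with a count, with a median of 13183.5 (11756 to 15315). The medians were 14419 (13859 to 15028) in PTE+ and 14520 (12122 to 15321) in sham libraries. Abundant genes with at most 3 counts had a median number of 105 in PTE-, 9 in PTE+ and 11 in sham libraries. The part of other cells in the enolase differences was not tested, nor that of gene detection in the marker differences.

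By the criteria, 1 of 35 enzymes was higher (Eno2) and 2 lower (Eno1 and Eno1b) in contralateral PTE+ than PTE- mice, while 0.44% of 11366 genes above 5 TPM were higher and 1.19% lower. Of the 1892 genes above 100 TPM, which include Eno1 and Eno1b, 9 were higher and 76 lower. In PTE- against sham, Eno2 was the 1 of 35 enzymes that was lower and none was higher, beside 0.347% of 11255 genes lower and 0.631% higher. In PTE+ against sham none met the criteria, where the background was 0.255% of 11367 genes higher and 0.405% lower. After adjustment 0 enzymes passed in any of these with edgeR, DESeq2 or limma (of all 14642 genes edgeR called 1, or 0.00683%, in PTE+ against PTE-), while 3, 1 and 0 had an unadjusted edgeR p under 0.05. The smallest p in the last comparison was that of Pgm2 (edgeR p = 0.217, log2 fold change -1.42 ± 1.12), whose CPM was 0.00, 0.13, 20.1, 32.6 and 33.7 in PTE+ mice and 26.1 to 74.4 in sham mice, and limma on log2(TPM + 1) gave it an unadjusted p of 0.0084. The median log2 fold change of the enzymes was -0.17 in PTE+ against PTE- (23 of 35 below 0), beside -0.17 for the 1892 genes above 100 TPM (1405 below 0) and -0.05 for all 14642 genes (7804 below 0), but it was 0.15 on the log2(TPM + 1) scale. In PTE- against sham it was 0.06, where genes above 100 TPM had 0.10, but -0.24 on the log2(TPM + 1) scale, on which the median of 10873 genes lay 0.12 lower (-0.12). In PTE+ against sham it was -0.13, where genes above 100 TPM had -0.06.

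**Figure D3:**
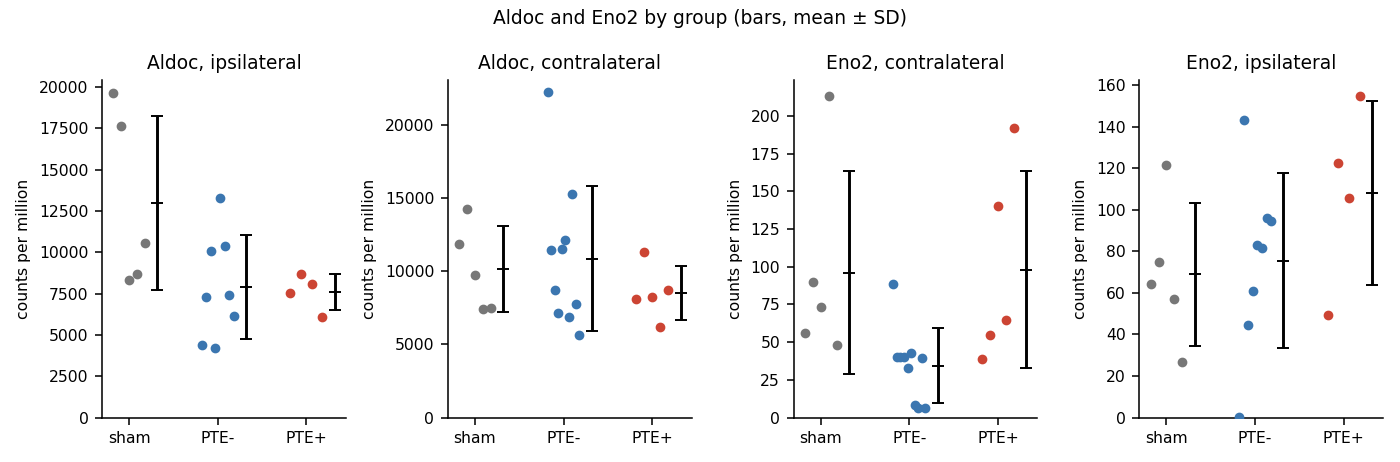
CPM of Aldoc and Eno2 in each library by group and side; each point is a mouse and the bar gives mean ± SD. Ipsilateral Aldoc is 12978 ± 5285 CPM in sham and 7902 ± 3151 CPM in PTE- mice with overlapping points, and contralateral Eno2 is highest in PTE+ mouse a9_19 (192 CPM) and sham mouse a9_11 (213 CPM).

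The sides were then compared within the 17 mice that gave both libraries, with the mouse as a block in the fit. Enolase 1 was lower on the injured side in PTE- mice. The ipsilateral minus contralateral difference of Eno1 on the log2(CPM + 1) scale lay between -0.63 and 0.11 with a median of -0.44, and was below 0 in 7 of 8 PTE- mice, the exception being a9_13. In the 5 sham mice the difference of Eno1 had a mean of 0.27 ± 0.29 (SD) and was above 0 in 4 of them, and in the 4 PTE+ mice it had a mean of -0.04 ± 0.13 (SD). The fitted log2 fold change in PTE- mice was -0.41 ± 0.09 for Eno1 (SE; edgeR p = 0.00035) and -0.45 ± 0.10 for Eno1b (SE; edgeR p = 0.00031). An exact sign-flip permutation test over the 8 mice gave p = 0.0156 for each, where 0.0078 is the smallest possible. The mean Eno1 difference was -0.46 in the 3 a8 mice and -0.37 in the 5 a9 mice, and without mouse a8_11 the fitted value was -0.37 (edgeR p = 0.00091). DESeq2 gave Eno1b an adjusted p of 0.0438 (log2 fold change -0.36).

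In sham mice the fitted side difference was 0.27 ± 0.12 for Eno1 (SE; edgeR p = 0.0317) and 0.29 ± 0.13 for Eno1b (SE; edgeR p = 0.0313), and the exact sign-flip permutation test gave p = 0.125, with 0.0625 the smallest possible. Without sham mouse a8_15 the Eno1 value was 0.18 (edgeR p = 0.170), without a9_9 0.23 (edgeR p = 0.107) and without a9_11 0.29 (edgeR p = 0.0502). Without the replicate block it was 0.30 (edgeR p = 0.0562). In PTE+ mice no enzyme met the criteria, and Pfkp had the smallest p (log2 fold change -0.57 ± 0.51, edgeR p = 0.277), a value that was -0.08 without mouse a9_19.

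The side difference itself differed by status. For injured mice, taken as the mean of the PTE+ and PTE- side differences, against sham mice it was -0.50 ± 0.14 for Eno1 (SE; edgeR p = 0.0026) and -0.55 ± 0.15 for Eno1b (SE; edgeR p = 0.0022). The mean Eno1 differences behind this contrast were -0.41 in PTE-, -0.04 in PTE+ and 0.27 in sham mice. It therefore includes the rise in sham mice, which was weaker without some single mice. Permuting status exactly over the 17 mice gave p = 0.0023 for each. That permutation test took the plain mean of the 12 injured mice, in which the more numerous PTE- mice weigh more. Between PTE+ and PTE- mice the side difference of Eno1 differed by 0.37 ± 0.16 (SE; edgeR p = 0.0327) and that of Eno1b by 0.39 ± 0.17 (SE; edgeR p = 0.0370). Exact permutation over the 12 injured mice gave 0.0182 for Eno1 and 0.0404 for Eno1b as p. The contralateral libraries here are among those in which Eno1 was lower in PTE+ than PTE- mice, while the ipsilateral means of Eno1 were close. The contrast is therefore not separate from the contralateral comparison. This second contrast depended on the fit: for Eno1 it gave p = 0.0897 in edgeR without the replicate block, p = 0.0733 with RLE size factors and p = 0.112 in DESeq2, and it missed the threshold without any 1 of mice a8_10 (edgeR p = 0.0637), a9_12 (edgeR p = 0.0544), a9_17 (edgeR p = 0.0549) or a9_18 (edgeR p = 0.0902).

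**Figure D4:**
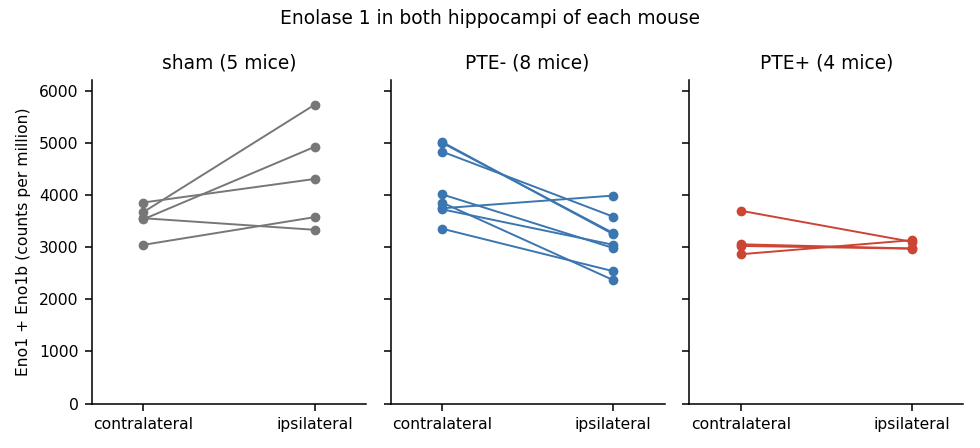
Summed CPM of Eno1 and Eno1b in the contralateral and ipsilateral hippocampus of each of 17 mice, a line per mouse, in sham, PTE- and PTE+ mice. The line falls in 7 of 8 PTE- mice, rises in 4 of 5 sham mice, and in PTE+ mice the mean log2 difference is -0.05.

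Counted by the criteria, 2 of 35 enzymes (Eno1 and Eno1b) were lower on the ipsilateral side in PTE- mice, where 1.17% of 11380 genes were lower, and the same pair was higher in sham mice, where 0.171% of 11118 genes were higher. In PTE- mice 0.861% of genes were higher and in sham mice 0.072% lower. In PTE+ mice none of the 35 met the criteria, beside 0.221% of 11741 genes higher and 0.4% lower. In the contrast of injured with sham the pair was lower, beside 0.371% of 12396 genes (0.161% were higher), and in that of PTE+ with PTE- higher, beside 0.376% of 12218 genes (0.516% were lower). With the counts of Eno1 and Eno1b summed, each count of this pair was 1 of 34. Among genes above 100 TPM, which include the pair, 90 of 1969 were lower and 24 higher in PTE- mice. In sham mice 12 of 1891 such genes were higher and 1 lower. For injured against sham mice 24 of 2265 were lower and 4 higher, and for PTE+ against PTE- mice 28 of 2208 were higher and 8 lower. With edgeR 0 enzymes passed adjustment in any of the 5, while 2 had an unadjusted p under 0.05 in each but the PTE+ mice, which had 0.

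No other enzyme met the criteria between the sides. In PTE- mice Pgk1 had a side difference of -0.41 ± 0.20 (SE; edgeR p = 0.0518), below 0 in 7 of 8 mice, and Aldoc -0.52 ± 0.25 (SE; edgeR p = 0.0537), below 0 in 5 of 8. In sham mice Aldoc was higher on the ipsilateral side in 4 of 5 mice (0.29 ± 0.31, edgeR p = 0.361), and Gpi1 in 5 of 5, where 5.76% of genes had all 5 mice on 1 side. In PTE+ mice 6 enzymes (Tpi1, Pfkfb2, Pdk2, Pygm, Ppp1r3c and Pgm1) lay on 1 side in all 4 mice, beside 14.5% of genes. The median side difference of the 35 enzymes was 0.13 in sham, -0.13 in PTE- and -0.04 in PTE+ mice, (0.02, -0.01 and 0.03 on the log2(TPM + 1) scale), beside -0.03, -0.08 and -0.08 for all 15731 genes and 0.04, -0.11 and -0.01 for genes above 100 TPM. Without mouse a8_11, whose ipsilateral library stands apart, the value of PTE- mice was -0.0015. By step, the median in the contrast of injured with sham mice was -0.01 for hexokinase and isomerase (3 enzymes), -0.26 for phosphofructokinase and its regulators (5), -0.19 from aldolase to Gapdh (4), -0.30 from Pgk1 to Pkm (6), 0.01 for pyruvate dehydrogenase, its kinases and pyruvate carboxylase (8) and -0.43 for the glycogen enzymes (9). Over all 15731 genes it was -0.07 and over 2265 genes above 100 TPM -0.11, with 8355 and 1420 of them below 0. Of the glycogen enzymes 8 of 9 lay below 0, none with an unadjusted p under 0.05, and mouse a8_11 had side differences of -9.27 for Pgm1, -7.67 for Pygm and -5.81 for Ppp1r3c.

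**Figure D5:**
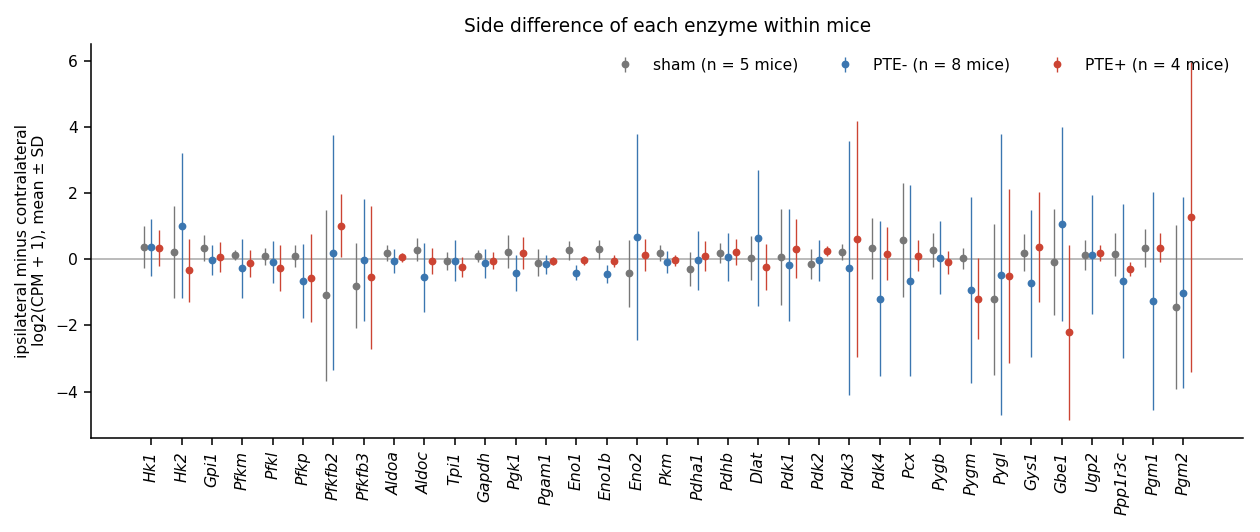
Ipsilateral minus contralateral difference of log2(CPM + 1) for each of the 35 enzymes, mean ± SD over 5 sham, 8 PTE- and 4 PTE+ mice. The bars of Eno1 and Eno1b are among the shortest, while those of rare enzymes such as Pdk3, Pygl and Gbe1 span several log2 units in PTE- mice.

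Ratios of isoenzymes were compared as log2 of the TPM ratio with 1 TPM added to each, over 42 tests. After Benjamini-Hochberg adjustment over the 42, 0 of them passed, and 4 had an unadjusted exact permutation p under 0.05. The ratio of Eno1 to Eno2 was lower in contralateral PTE+ than PTE- mice by 1.89 on the log2 scale (4.42 ± 0.97, n = 5, against 6.31 ± 1.22, n = 10; exact permutation p = 0.0107, adjusted 0.273). It was higher in PTE- than sham by 1.79 (exact permutation p = 0.0130, adjusted 0.273). The ratio of Hk1 to Hk2 in ipsilateral PTE+ against PTE- mice (exact permutation p = 0.0303, adjusted 0.372) sets Hk2 at 0 to 43 counts in the PTE+ libraries against 0 to 1253 in the PTE- libraries. The ratio of Pygb to Pygm was higher on the ipsilateral side in 12 of 17 mice, by 0.72 ± 1.41 (SD; exact sign-flip permutation p = 0.0355, adjusted 0.372). Aldoc to Aldoa was lower in ipsilateral PTE- than sham mice by 0.54 (exact permutation p = 0.0862, adjusted 0.667). Pfkm to Pfkp and Pdk2 to Pdk4 gave no exact permutation p under 0.164.

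Of 54 further genes of the same pathways (other isoenzymes, transporters, lactate dehydrogenases, the pentose phosphate pathway and other glycogen genes), 46 to 52 were tested in a comparison. Those that met the criteria were Ppp1r3g, another glycogen-targeting subunit of protein phosphatase 1, and Ldhb, the lactate dehydrogenase subunit of oxidative cells. Ppp1r3g CPM was 114 to 146 in the 5 contralateral PTE+ mice and ran from 120 over 203 to 254 in PTE- mice, an overlap with a log2 fold change of -0.54 ± 0.20 (SE; edgeR p = 0.0133), but -0.34 with limma (p = 0.154). In ipsilateral PTE- against sham mice Ppp1r3g had -0.86 ± 0.34 (SE; edgeR p = 0.0211), which was -0.48 (edgeR p = 0.159) without sham library a9_9 and -0.67 with limma (p = 0.0707), and on the ipsilateral against the contralateral side of PTE- mice -0.62 ± 0.27 (SE; edgeR p = 0.0332), which missed the threshold without any 1 of 5 mice. Ldhb CPM ran from 1214 over 1787 to 2786 in ipsilateral PTE- mice and from 1749 to 3820 in sham mice. These ranges overlapped, and edgeR gave a log2 fold change of -0.45 ± 0.21 (SE; p = 0.0446) that missed the threshold in 8 of the 13 fits that left out 1 library and in 4 other settings (DESeq2 p = 0.140). In all other comparisons 0 of these genes met the criteria, and after adjustment 0 passed in any comparison with edgeR.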

How the data were processed

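RNA of 37 libraries from 20 mice was sequenced after SMART-Seq amplification without molecular identifiers. Per the labels and the study's methods, the authors trimmed reads with Trim Galore 0.6.4, aligned them to mm10 with Bowtie2 2.4.1 and deposited RSEM 1.2.28 expected counts per gene, not normalized, and TPM, which scale counts by transcript length and library. The annotation release is not given in the sources used here. Expected counts were rounded. Names of 21856 of 21975 gene identifiers came from GRCm38.

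The enzymes, the gene lists and the comparisons were chosen with earlier results of these data known. Groups came from the labels. Each hemisphere was fitted with its 3 groups in edgeR 4.0.16 (R 4.3.3; quasi-likelihood test, TMM, filterByExpr), and the sides in 17 mice with the mouse as a block. The pairing is that of the animal; the deviations of its libraries correlated at -0.066 to 0.247. Criteria were p under 0.05, a 1.2-fold change and mean TPM above 5. Named were the leading enzyme of each step and, per comparison, up to 3 enzymes a direction with the smallest p among those meeting the criteria, otherwise the smallest p. Single values had exact 2-sided permutation tests on log2(CPM + 1). DESeq2 1.42.0, limma 3.58.1 (pseudocount 1), RLE factors, covariates, no filter and leaving out libraries were alternatives. The tests were checked on simulated counts in which every gene varied alike and 200 genes changed by 2 on the log2 scale. With a biological coefficient of variation of 0.4, 100% of these were found in ipsilateral PTE- against sham (14855 genes). With 1.2, 0% were found (14854 genes). The fitted 1.29 to 1.40 are common values over all genes. Enzymes above 100 TPM had a median SD of log2(TPM + 1) of 0.40, against 1.37 for genes of 5 to 100 TPM. The 0% therefore need not hold for them. Depth was 25371887 to 59846479 counts, and p-values cover the spread between these libraries.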

Additional observations from a re-analysis of the deposited data

Results flagged for a closer look

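In ipsilateral PTE- mice, Eno2 in library a8_11 lay far below the other 7, at 0.05165 CPM, where the next lowest had 44.35 CPM. Pgm2 stood at 0.0 CPM in ipsilateral PTE+ library a9_19, with the next at 20.44 CPM, and at 0.0 CPM in ipsilateral sham library a9_9, with the next at 31.54 CPM. These came from 54 groups of 4 to 10 libraries over 9 genes, of which 3 were flagged. Some of that many groups can stand out by chance, at a rate that was not measured here.

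The side difference of enolase 1 (ipsilateral against contralateral, log2) differed between groups of mice. By the edgeR contrast itself, injured and sham mice differed by -0.546 for Eno1b and -0.495 for Eno1, and PTE+ and PTE- mice by 0.389 for Eno1b and 0.37 for Eno1. None of these passed adjustment over all genes, and Eno1 and Eno1b share reads. The libraries are among those of the group comparisons above.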

How the results depend on the processing

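Of the 6 comparisons between groups, the number of enzymes meeting the criteria moved with limma to 2 in contralateral PTE- against sham (Eno2 and Gbe1), 1 in contralateral PTE+ against sham (Pgm2) and 0 in ipsilateral PTE+ against sham, where DESeq2 gave 1 (Eno1b). It ran from 2 to 4 in contralateral PTE+ against PTE- and from 2 to 3 in ipsilateral PTE- against sham. In the former, limma lost Eno1 and Eno1b (limma p = 0.115 for each). There the covariate for detected genes lost Eno2 (edgeR p = 0.0550). Between the sides of sham mice the number was 1 without the replicate block, 1 with RLE factors, 1 with DESeq2, 0 with limma and 1 with Eno1 and Eno1b summed, an alternative chosen after seeing the data. In PTE- mice it was 4 without the replicate block (with Aldoc and Pgk1), 4 with limma (with Aldoc and Dlat) and 1 summed, and DESeq2 gave 1 by adjusted p. In PTE+ mice DESeq2 gave 1 (Gbe1). In the contrast of side differences between injured and sham mice it was 1 summed, and between PTE+ and PTE- mice 0 without the replicate block, 0 with RLE factors, 1 with DESeq2 (Gbe1) and 1 summed. The block changed no other of these counts.

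Leaving out 1 library or mouse gave 2 (a9_19) to 5 (a9_14) in contralateral PTE+ against PTE-, 0 (sham a9_11) to 2 (PTE- a9_14 or a9_20) in PTE- against sham, 1 (sham a8_15) to 4 (sham a9_11) in ipsilateral PTE+ against sham, 0 (a8_15, a9_9 or a9_11) to 2 between sides in sham, 2 to 5 (a9_14; 4 without a8_9) in PTE-, 0 to 1 (a8_11) in PTE+ mice, and 0 (a8_10, a9_12, a9_17 or a9_18) to 4 (a8_11) in the contrast of PTE+ with PTE-. Eno1 and Eno1b kept their direction and p under 0.05 between the sides of PTE- mice and in injured against sham under every alternative and without any 1 mouse. On the log2(TPM + 1) scale the median enzyme difference was 0.15, -0.24 and -0.06 in contralateral PTE+ against PTE-, contralateral PTE- against sham and ipsilateral PTE+ against sham; the cause was not tested. Leaving out 1 library moved that median to -0.07 (PTE- a8_11), 0.00 (PTE- a8_14) and -0.03 (sham a8_16) on the contralateral side (PTE+ against PTE-, then each of PTE- and PTE+ against sham), to 0.08 (PTE- a9_13) in ipsilateral PTE+ against PTE-, and to -0.10 and -0.17 (sham a8_15) in ipsilateral PTE- and PTE+ against sham. In ipsilateral PTE- against sham DESeq2 kept Aldoc and Eno1b but not Eno1. Counts of at most 3 in 5 to 12 libraries limit Hk2, Pdk3, Pygl, Gbe1 and Pgm2.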
